A study of Mus musculus with 21 samples.

Results

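The Krüppel-like factors described here were Klf2, Klf3, Klf4, Klf5, Klf6, Klf9, Klf10 and Klf13. The rule used gene symbols and no measured value, although these 8 genes were picked with earlier results of these data known, and it took every probe set of the array whose annotation gave a single gene symbol and whose symbol was 1 of these 8. That rule gave 29 probe sets, of 45101 on the array, and 8 genes, of 18193 with a probe set of their own. Klf3 and Klf9 had 7 probe sets each, Klf6 had 5, Klf5 and Klf13 had 3 each, Klf4 had 2, and Klf2 and Klf10 had 1 each. Expression was measured in mouse cells on 21 Affymetrix GeneChip 430 arrays, 3 for each of 7 groups. Androgenetic haploid embryonic stem cells (ahES cells), whose chromosomes form 1 set that comes from the father, were represented by AH129-5, AH129-N1 and AH129-NC1, and diploid ES cells by CS1-1 and R1. All 5 lines had the 129 Sv background and were grown in N2B27 medium with 2i, a pair of kinase inhibitors, and the cytokine LIF. Mouse embryonic fibroblasts (MEF) had the CD1 background and were grown in DMEM with 10% fetal bovine serum. Round sperm, germ cells that have completed meiosis, were isolated from the testis of 129 Sv mice. No age of the animals was given. The ahES cells and the round sperm had been sorted by flow cytometry as haploid cells in G0/G1. The labels mention no such sort for CS1-1, R1 or MEF, so a difference between ahES and diploid ES cells and an effect of that sort cannot be told apart. Strain, culture medium and cell type likewise differ together between MEF and ES cells. The labels call the 3 arrays of each group biological replicates without saying whether they came from separate cultures or animals, so p-values measure the spread between these arrays, which may be technical.

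Krüppel-like factors are transcription factors that bind GC-rich and CACCC-type DNA through a set of C-terminal zinc fingers, and that differ in the domains by which they activate or repress genes. Klf2, Klf4 and Klf5 act in ES cells as activators of the naive pluripotency network, where Klf4 is a target of LIF and STAT3 signalling and Klf2 is tied to the block of MEK signalling by 2i. Klf3 is a repressor that recruits the corepressor CtBP, whereas Klf9, Klf10 and Klf13 recruit Sin3a, Klf9 being induced by steroid and thyroid hormones and Klf10 by TGF-beta. Klf6 is a widely expressed activator that responds early to injury and growth signals. In the testis, Klf4 is known as a factor of postmeiotic germ cells and of Sertoli cells.

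The stretches of 250 bases before the transcription start of 4 of the genes are printed because these genes lay at the extremes of the expression pattern: Klf4 in round sperm stayed within 2-fold of ES cells, while Klf3, Klf6 and Klf13 were low there and high in every other group. They were taken from RefSeq promoters of build GRCm38.p6, which held 6 of the 8 genes (Klf2, Klf3, Klf4, Klf6, Klf9 and Klf13). Sequences run 5′ to 3′ on the strand of the gene. Capitals mark GC boxes (GGGCGG, or CCGCCC where the box lies on the opposite strand) and CCAAT boxes (CCAAT, or ATTGG on the opposite strand).
Klf4 promoter, chr4:55532476-55532725, minus strand: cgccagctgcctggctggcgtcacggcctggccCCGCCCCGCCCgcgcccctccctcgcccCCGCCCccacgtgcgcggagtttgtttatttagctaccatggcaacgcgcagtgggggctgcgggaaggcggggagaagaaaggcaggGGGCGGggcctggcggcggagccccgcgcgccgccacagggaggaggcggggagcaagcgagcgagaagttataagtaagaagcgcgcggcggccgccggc
Klf3 promoter, chr5:64803271-64803520, plus strand: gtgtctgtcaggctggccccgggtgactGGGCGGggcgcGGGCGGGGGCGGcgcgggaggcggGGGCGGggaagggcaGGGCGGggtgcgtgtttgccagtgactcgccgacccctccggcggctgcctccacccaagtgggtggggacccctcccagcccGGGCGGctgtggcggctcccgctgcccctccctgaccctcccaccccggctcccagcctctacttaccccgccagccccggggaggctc
Klf6 promoter, chr13:5861239-5861488, plus strand: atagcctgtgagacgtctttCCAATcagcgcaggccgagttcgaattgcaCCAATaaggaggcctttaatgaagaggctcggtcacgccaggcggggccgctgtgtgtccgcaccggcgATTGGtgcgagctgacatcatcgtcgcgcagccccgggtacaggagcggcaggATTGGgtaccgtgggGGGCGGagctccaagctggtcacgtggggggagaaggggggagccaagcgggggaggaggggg
Klf13 promoter, chr7:63938916-63939165, minus strand: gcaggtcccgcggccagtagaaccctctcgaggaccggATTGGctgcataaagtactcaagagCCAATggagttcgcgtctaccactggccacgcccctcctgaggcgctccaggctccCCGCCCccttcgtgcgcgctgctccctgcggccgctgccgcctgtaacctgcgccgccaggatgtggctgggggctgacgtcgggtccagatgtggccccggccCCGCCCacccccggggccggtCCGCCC

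Searched over 300 bases, from 250 before to 50 after the start, and on both strands, the GC box occurred 4 times in Klf4, 6 times in Klf3, 1 time in Klf6, 3 times in Klf13 and 2 times in Klf2, and did not occur in Klf9. All of these matches lay before the start. Thus 5 of the 6 promoters held a GC box, which was present in 35.7% of 32851 RefSeq promoters of that length. CCAAT occurred 4 times in Klf6, 3 times in Klf9 and 2 times in Klf13, and was found in 37.4% of all promoters. In Klf4 a pair of GC boxes overlapped by a base, and in Klf9 a pair of CCAAT boxes overlapped. The CACCC box, spelled CACCC, occurred 5 times in Klf3 and 1 time each in Klf2, Klf9 and Klf13, against 57.5% of all promoters with at least 1. A CACCC box overlapped a GC box in Klf3 and in Klf13. None of the 6 windows held the letters TATAAA (13.6% of all promoters), a CArG box (1.63%) or the cAMP response element TGACGTCA (1.79%), and the STAT-type letters TTCNNNGAA occurred in Klf9 (8.3% of all promoters). The 6 promoters had a GC content between 63.0% and 76.7% and 23 to 40 CpG dinucleotides, against medians of 52.7% and 7 over all promoters. The Klf4 window, with 40, had the highest count of CpG dinucleotides among the 6, and the Klf6 window, with 23, the lowest. A match to these letters is a description of the sequence, and binding was not measured.

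Cell identity was checked with marker genes, and all 21 arrays were nearest to another array of their own group. All 8 ES cell markers, among them Pou5f1 and Nanog, lay above background on all arrays of every ES line, all 14 fibroblast markers did so in MEF, and all 10 round spermatid markers, among them Prm1 and Tnp2, did so in round sperm. Round sperm also held all 8 spermatocyte markers above background, with a summed signal of 12900 to 15100 units against 133000 to 194000 for the round spermatid list. Fibroblast markers also gave signal in the ES lines: 11 (CS1-1) to 14 (AH129-NC1 and R1) of the 14 lay above background on all arrays of a line, with summed signals of 40500 to 49400 units in the ahES lines, against 199000 to 201000 in MEF. In round sperm, 3 of 8 Sertoli cell markers lay above background on all arrays, with a summed signal of 508 to 604 units, while Wt1 and Amh were near background. Of the leukocyte markers 1 of 5 did so, with Ptprc and Cd14 near background, and of the fibroblast markers 7 of 14, with summed signals of 223 to 246 and 1890 to 2160 units. The part of such cells in the values of the 8 factors was not tested. Control probe sets for the 3' and 5' ends of Gapdh differed by 0.55 ± 0.17 (log2, 3' minus 5', SD, n = 3) in round sperm, and by group means between -0.30 and -0.20 in the other 6 groups, so RNA quality moved together with every difference from round sperm. The part of RNA quality in those differences was not tested. In bulk RNA, a smaller share of cells that express a gene and less of its RNA per cell cannot be told apart.

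Values below are log2 of the deposited MAS5 signal plus an offset of 9.7 signal units, so 1 unit is a 2-fold difference well above the offset. For each gene the brightest probe set, by its mean over the 21 arrays, stands for the gene, and levels are compared between groups for 1 probe set, never between genes. Background is the 40th percentile of an array, which lay between 5.34 and 5.63. Of the 29 probe sets, 27 lay above it on all 3 arrays of at least 1 group, and 16 did so on all 21 arrays. The 2 that did so in no group were 1458487_at of Klf3 and 1456030_at of Klf13. A gene passed the test at a limma adjusted p (Benjamini-Hochberg over all genes tested) under 0.05 together with a difference of at least 2-fold. For counts at an unadjusted p, the share of all genes was not counted. An adjusted p is never below the unadjusted p, so that share is at least the share at an adjusted p under 0.05. All 8 genes were tested in each of the 10 comparisons.

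**Figure D1:**
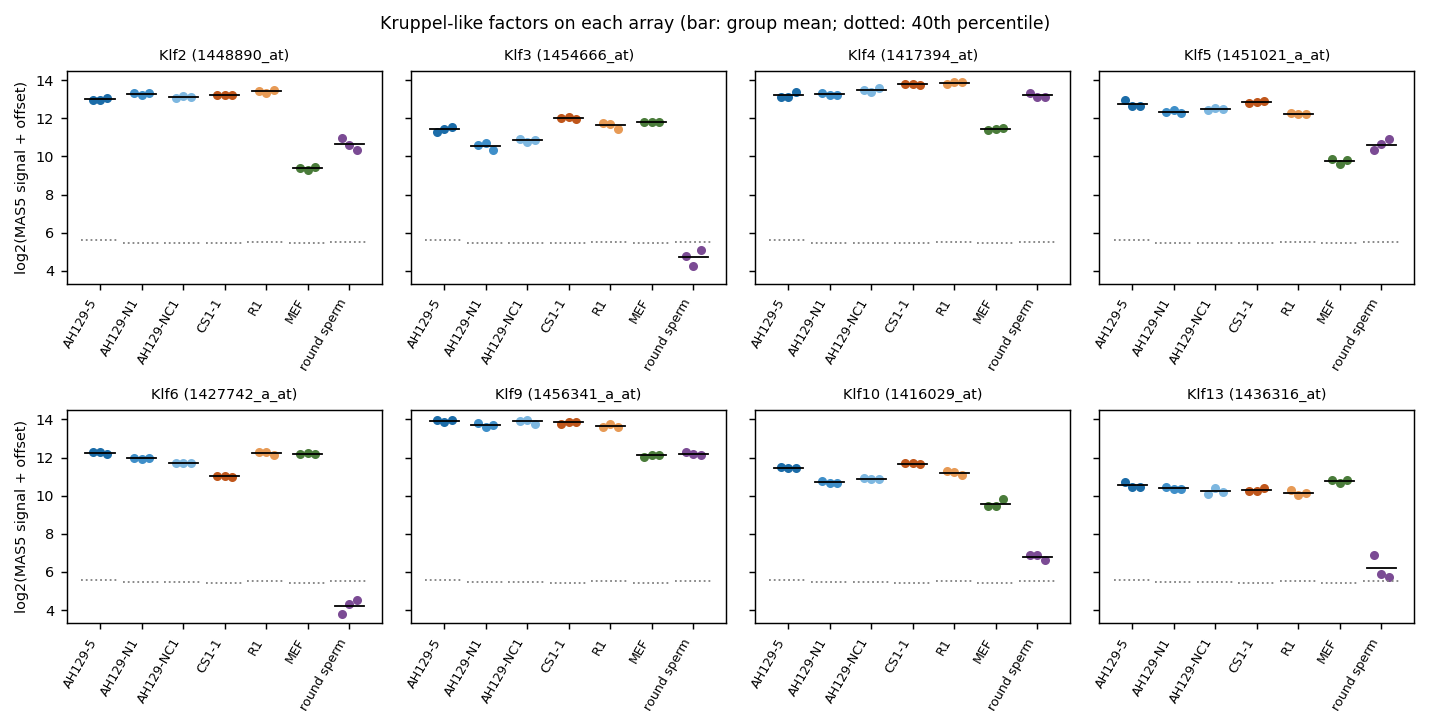
Log2(MAS5 signal + 9.7) of each Krüppel-like factor on each of the 21 arrays, by group. Points are arrays, bars group means and dotted lines the mean 40th percentile of the group's arrays. Klf3 and Klf6 lay below the dotted line in round sperm, whereas Klf4 stayed at 13.11 to 13.35 there.

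By their brightest probe sets, the 3 factors of the naive network were high in all 5 ES lines and lowest in MEF. Klf2 (1448890_at), which sustains the naive ground state, had values of 12.94, 12.98 and 13.05 in AH129-5, of 13.20, 13.32 and 13.34 in AH129-N1 and of 13.05, 13.14 and 13.15 in AH129-NC1. All 3 arrays of CS1-1 read 13.21, and R1 read 13.32, 13.43 and 13.48. Round sperm read 10.32, 10.61 and 10.95 and MEF read 9.30, 9.37 and 9.44. The order of the means was therefore R1, AH129-N1, CS1-1, AH129-NC1, AH129-5, round sperm and MEF. Neighbours in that order overlapped in range for R1 with AH129-N1, AH129-N1 with CS1-1, and AH129-NC1 with AH129-5.

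Klf4 (1417394_at), a factor used to reprogram somatic cells to pluripotency, was highest in the diploid lines, at 13.81, 13.89 and 13.89 in R1 and 13.75, 13.78 and 13.82 in CS1-1. The ahES lines followed, with 13.39, 13.49 and 13.57 in AH129-NC1, 13.22, 13.24 and 13.32 in AH129-N1 and 13.13, 13.13 and 13.38 in AH129-5. Round sperm, at 13.11, 13.14 and 13.35, overlapped AH129-5 and AH129-N1. MEF stood apart at 11.38, 11.43 and 11.51. R1 overlapped CS1-1, and AH129-N1 overlapped AH129-5, while AH129-NC1 lay between the diploid lines and AH129-N1 without overlap.

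Klf5 (1451021_a_at), required in the early embryo and in ES cell self-renewal, ran from 12.82, 12.88 and 12.89 in CS1-1 and 12.67, 12.67 and 12.96 in AH129-5 down to 12.20, 12.25 and 12.28 in R1. AH129-NC1 read 12.43, 12.47 and 12.52 and AH129-N1 read 12.28, 12.31 and 12.46. Round sperm read 10.33, 10.63 and 10.91, and MEF 9.61, 9.81 and 9.89. By this probe set the means of the diploid lines thus occupied both ends of the ES range, with the 3 ahES lines between them. CS1-1 overlapped AH129-5, AH129-NC1 overlapped AH129-N1, and AH129-N1 met R1 at 12.28, whereas round sperm and MEF overlapped no other group. By 1451739_at the means of both diploid lines, 10.28 in CS1-1 and 10.12 in R1, lay above those of the ahES lines. These were 9.85 in AH129-5, 9.69 in AH129-NC1 and 9.44 in AH129-N1 (ahES minus diploid ES -0.54 ± 0.20, limma adjusted p = 0.0892). By the same probe set MEF was not below round sperm, with means of 7.17 and 7.10 (MEF minus round sperm 0.08 ± 0.17, limma adjusted p = 0.681).

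Among the repressors, Klf3 (1454666_at) had values of 11.98, 12.00 and 12.05 in CS1-1, 11.79, 11.80 and 11.81 in MEF and 11.45, 11.70 and 11.73 in R1. The ahES lines were lower, at 11.27, 11.43 and 11.54 in AH129-5, 10.76, 10.85 and 10.91 in AH129-NC1 and 10.33, 10.59 and 10.69 in AH129-N1. Round sperm read 4.24, 4.79 and 5.11, below the background percentile. R1 and AH129-5 overlapped, and no other neighbours in the order did.

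Klf9 (1456341_a_at) had group means over a range of 1.83, and its 5 ES lines formed a chain of overlapping ranges from AH129-5 (13.88, 13.95 and 13.99) to R1 (13.62, 13.63 and 13.76). AH129-NC1 read 13.78, 13.94 and 13.98, CS1-1 read 13.78, 13.85 and 13.89, and AH129-N1 read 13.61, 13.72 and 13.79. Round sperm (12.12, 12.19 and 12.31) and MEF (12.05, 12.14 and 12.14) overlapped each other and lay below the ES lines.

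Klf10 (1416029_at) was the factor whose 7 groups did not overlap between any neighbours. Ranges without overlap were common between lines of 1 kind, from 47.4% of genes tested for AH129-N1 and AH129-NC1 to 59.9% for CS1-1 and R1. The share of genes without overlap between all 7 groups was not counted. Klf10 read 11.64, 11.70 and 11.71 in CS1-1, 11.43, 11.45 and 11.49 in AH129-5, 11.08, 11.26 and 11.29 in R1, 10.87, 10.89 and 10.94 in AH129-NC1 and 10.67, 10.69 and 10.75 in AH129-N1. MEF followed at 9.48, 9.48 and 9.81, and round sperm at 6.64, 6.87 and 6.90. AH129-5 lay between the diploid lines, and AH129-NC1 and AH129-N1 lay below both, so the order did not fully divide the lines by ploidy.

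Klf13 (1436316_at), known as an activator of chemokine expression in T lymphocytes besides its role as a repressor, was at 10.65, 10.80 and 10.83 in MEF. The ES lines overlapped from 10.45, 10.45 and 10.72 in AH129-5 to 10.05, 10.15 and 10.29 in R1, and AH129-5 also overlapped MEF. AH129-N1 read 10.34, 10.37 and 10.47, CS1-1 read 10.24, 10.26 and 10.40 and AH129-NC1 read 10.11, 10.20 and 10.39. Round sperm read 5.75, 5.90 and 6.90, with the highest array a full unit above the other 2.

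Klf6 (1427742_a_at) read 12.17, 12.30 and 12.31 in AH129-5, 12.15, 12.28 and 12.31 in R1 and 12.19, 12.20 and 12.24 in MEF, 3 groups whose ranges overlapped. AH129-N1 (11.94, 11.96 and 11.98) and AH129-NC1 (11.71, 11.72 and 11.74) were lower. CS1-1 was lowest of the ES lines at 10.97, 11.04 and 11.05, while the other diploid line, R1, overlapped AH129-5, the highest. Round sperm, at 3.81, 4.33 and 4.51, lay below background.

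Against MEF, the comparison of pluripotent cells with somatic cells, 5 of the 8 factors were higher in ahES cells, none was lower and 3 did not pass. Among all 13230 genes tested, 21.2% were higher and 42.3% passed in either direction. The median difference of the 8 factors was 1.59 (log2), against 0.08 for all genes tested. The factors that passed were the naive factors Klf2, Klf4 and Klf5 together with the repressors Klf9 and Klf10. Klf2 had the largest difference of the 8: its 9 ahES arrays lay between 12.94 and 13.34 (median 13.14) and the 3 MEF arrays at 9.30 to 9.44, a difference of 3.76 ± 0.08 (SE) or 13.5-fold (limma adjusted p = 9.74e-20). Klf5 was 6.78-fold higher (2.76 ± 0.09, limma adjusted p = 6.61e-17), Klf4 3.68-fold (1.88 ± 0.06, adjusted p = 5.75e-17), Klf9 3.34-fold (1.74 ± 0.05, adjusted p = 4.05e-17) and Klf10 2.70-fold (1.43 ± 0.07, adjusted p = 1.76e-13). For these 5 genes and Klf3, the ranges of ahES and MEF arrays did not overlap, which held for 63.4% of all genes.

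Klf3, Klf6 and Klf13 did not pass the 2-fold threshold against MEF, with differences of -0.87 ± 0.12 (limma adjusted p = 1.09e-06), -0.23 ± 0.09 (adjusted p = 0.0247) and -0.37 ± 0.16 (adjusted p = 0.0358). All 3 of those values were below 0, that is, toward MEF, and all 8 factors had an adjusted p under 0.05, as did 77% of all genes. The same 5 factors were higher in diploid ES cells than in MEF, at 3.94 ± 0.09 for Klf2, 2.79 ± 0.09 for Klf5, 2.38 ± 0.06 for Klf4, 1.86 ± 0.08 for Klf10 and 1.64 ± 0.06 for Klf9 (limma adjusted p between 1.43e-19 and 6.35e-15), while 22.6% of 13026 genes were higher and 44.8% passed in either direction. By its brightest probe set Klf3 differed there by 0.02 ± 0.13 (adjusted p = 0.901), and 0.00 with quantile normalization. The MEF arrays lay inside the diploid range. Klf3 probe set 1431630_a_at was 0.93 ± 0.14 higher in ahES cells than in MEF (limma adjusted p = 4.33e-06), under 2-fold. In diploid ES cells it passed, at 1.24 ± 0.15 above MEF (limma adjusted p = 1.71e-07). The other Klf3 probe sets tested did not pass. They differed by -0.98 to -0.26 for ahES minus MEF and by -0.14 to 0.46 for diploid ES minus MEF. Both comparisons share the MEF arrays.

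Against round sperm, 7 of the 8 factors were higher in ahES cells and Klf4 did not pass, while 40.8% of 14797 genes were higher and 73.1% passed in either direction. The median difference was 3.35 for the 8 factors and 0.32 for all genes tested. The largest differences were those of Klf6 and Klf3, whose probe sets were near background in round sperm. Klf6 lay between 11.71 and 12.31 (median 11.96) in ahES cells and at 3.81 to 4.51 in round sperm, which gave at least an 89.1-fold difference (limma adjusted p = 2.34e-25). Klf3 was at least 43-fold higher (limma adjusted p = 8.24e-22). A difference is given as a bound (at least) where the dimmer group was not above background on all of its arrays, with each array below its background percentile set to that percentile. Klf10 was 18.6-fold higher (4.22 ± 0.07, limma adjusted p = 1.73e-22) and Klf13 18.5-fold (4.21 ± 0.15, adjusted p = 1.63e-16). The Klf13 arrays of round sperm at 5.75 and 5.90 lay little above background. By its probe set 1432543_a_at, Klf13 differed by 3.10 ± 0.09. Klf2 differed by 2.50 ± 0.08 (5.67-fold), Klf5 by 1.91 ± 0.09 (3.76-fold) and Klf9 by 1.64 ± 0.05 (3.13-fold).

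Klf4 was the exception among the 8. Its 3 round sperm arrays, at 13.11 to 13.35, lay within the ahES range of 13.13 to 13.57 except for the array at 13.11, and the difference was 0.12 ± 0.06 (limma adjusted p = 0.069), or 0.00 with median-centred arrays. Its other probe set, 1417395_at, read 12.63 to 12.67 in round sperm, 13.20 to 13.48 in diploid ES cells and 10.90 to 10.95 in MEF. Diploid ES cells were above round sperm by 0.62 ± 0.06 for Klf4 (1.54-fold, limma adjusted p = 5.54e-09), under the 2-fold threshold. The other 7 factors were higher in diploid ES cells as well, among 40.8% of 14627 genes, from 1.55 ± 0.06 for Klf9 to at least 70.1-fold for Klf6 and 79.6-fold for Klf3.

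Fibroblasts and round sperm, the non-pluripotent groups, differed from each other in 6 of the 8 factors. Klf6, Klf3, Klf13 and Klf10 were higher in MEF and Klf4 and Klf2 were higher in round sperm, while 76.1% of 14435 genes passed, 41.7% higher in MEF and 34.5% lower. Klf6 was at least 105-fold and Klf3 at least 78.6-fold higher in MEF, followed by Klf13 (4.58 ± 0.19, or 3.28 ± 0.11 by 1432543_a_at) and Klf10 (2.78 ± 0.09). Klf4 was 3.39-fold higher in round sperm (-1.76 ± 0.07, MEF minus round sperm, limma adjusted p = 8.06e-16) and Klf2 2.39-fold (-1.26 ± 0.10, adjusted p = 7.81e-11). Klf5 (-0.85 ± 0.11) did not pass, but did so at -1.04 with quantile normalization, and Klf9 (-0.10 ± 0.07, or 0.13 with quantile normalization) did not pass. The median of all genes lay 0.31 to 0.33 above 0 in the 3 comparisons with round sperm, and other scalings of the arrays moved it by -0.10 to -0.32.

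**Figure D2:**
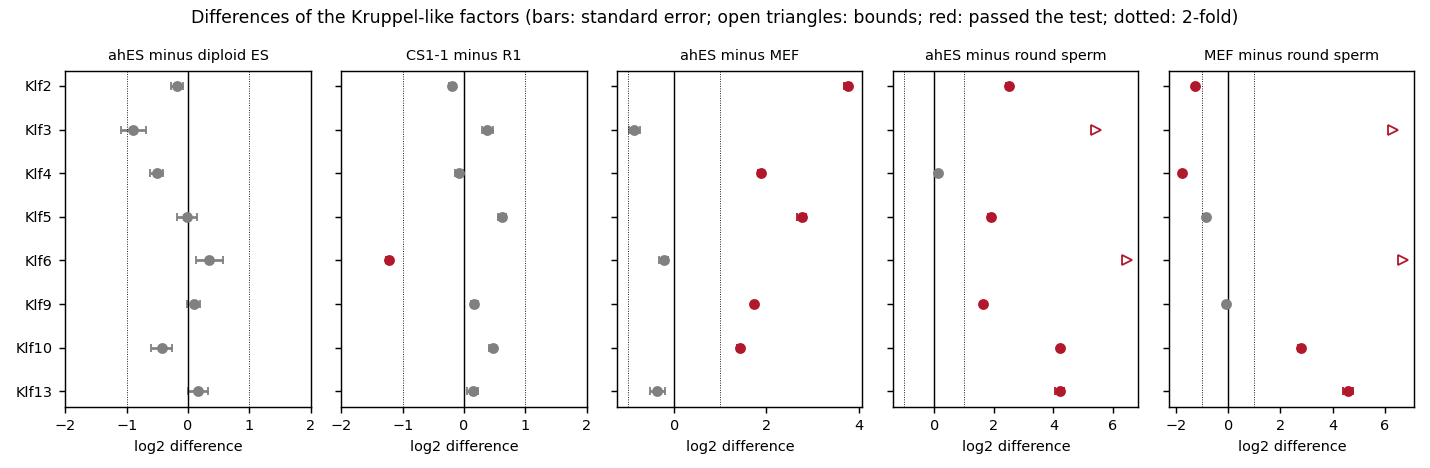
Log2 difference of each Krüppel-like factor in 5 comparisons (horizontal axes, with bars of 1 standard error and a scale of its own for each panel). Open triangles are lower bounds, for Klf3 and Klf6 against round sperm, with red symbols for factors that passed the test and dotted lines at 2-fold. In the panel of ahES minus diploid ES cells 0 factors were red, against 5 for ahES minus MEF and 7 for ahES minus round sperm.

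Between ahES and diploid ES cells, the comparison of haploid with diploid pluripotent cells, 0 of the 8 factors passed, against 4.37% of 12892 genes tested by limma. At an unadjusted p under 0.05, 3 factors lay lower in ahES cells, namely Klf3, Klf4 and Klf10. At least 11.7% of all genes, in either direction, had such a p. Without the 2-fold threshold, Klf3 and Klf4 had an adjusted p under 0.05, as did 11.7% of all genes. The 9 ahES arrays of Klf4 lay between 13.13 and 13.57 (median 13.32) and the 6 diploid arrays between 13.75 and 13.89 (median 13.81). These ranges did not overlap, which was the case for 14.1% of all genes, and the difference was -0.51 ± 0.11 (1.42-fold, limma adjusted p = 0.00427). Klf3 ran from 10.33 to 11.54 (median 10.85) in ahES cells and from 11.45 to 12.05 (median 11.86) in diploid cells, a difference of -0.89 ± 0.21 (1.85-fold, adjusted p = 0.007). By its other probe sets tested, the difference ran from -0.84 ± 0.17 (1429360_at) to -0.31 ± 0.18 (1431630_a_at, limma adjusted p = 0.33). The adjusted p was under 0.05 for 1429360_at and 1421604_a_at, but not for 1431630_a_at, 1441200_at and 1442920_at. Klf10 differed by -0.43 ± 0.17 (limma adjusted p = 0.102) and the other 5 by -0.18 to 0.35 (adjusted p between 0.307 and 0.964). With 5 lines, the lines rather than the arrays limit this comparison: with 1 mean per line the limma adjusted p was 0.063 for Klf4 and 0.143 for Klf3. Leaving out AH129-5 brought Klf3 past the threshold at -1.13 (adjusted p = 0.000399), as did leaving out R1, at -1.08 (adjusted p = 0.00434).

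**Figure D3:**
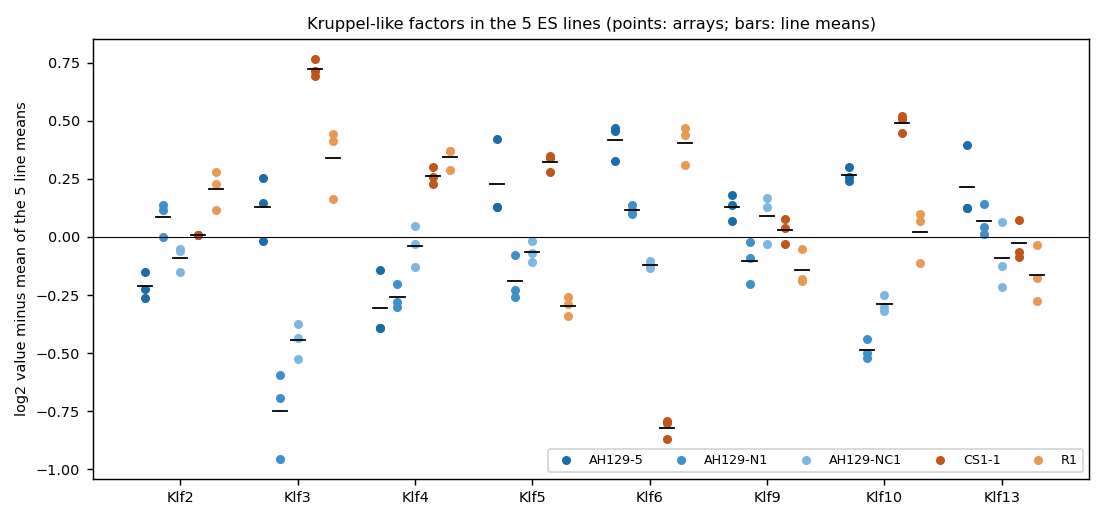
Log2 value of each Krüppel-like factor on the 15 arrays of the 5 ES lines, as the difference from the mean of the 5 line means (vertical axis). Points are arrays and bars line means, with ahES lines in blue and diploid lines in orange. Klf4 separates the blue from the orange lines, while the line means of Klf6 span 1.24 with CS1-1 lowest and R1 near AH129-5.

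The diploid lines CS1-1 and R1 differed from each other in Klf6. Its 3 arrays read 10.97 to 11.05 in CS1-1 and 12.15 to 12.31 in R1, so that it was 2.34-fold lower in CS1-1 (-1.23 ± 0.05, limma adjusted p = 2.6e-13). It was 1 of the 8 factors to pass, among 9.89% of 12098 genes in either direction and 5.7% lower in CS1-1. Of its 5 probe sets, 1418280_at (-1.26), 1427742_a_at (-1.23) and 1447448_s_at (-1.23) passed, as did 4.82% of 22032 probe sets in that direction, 1433508_at differed by -0.98 ± 0.08 and the dim 1459718_x_at by -0.64 ± 0.39. When probe sets marked as able to bind several transcripts were left out, 1433508_at represented Klf6 and the gene no longer passed. Klf5 (0.62 ± 0.07), Klf10 (0.47 ± 0.06), Klf3 (0.38 ± 0.09), Klf9 (0.17 ± 0.06) and Klf2 (-0.20 ± 0.05) had an adjusted p under 0.05 at differences under 2-fold, so that 6 factors did so in all, against 49.7% of all genes. Klf4 (-0.08 ± 0.06) and Klf13 (0.14 ± 0.09) did not, and neither did Klf5 by its probe set 1451739_at (0.16 ± 0.12, limma adjusted p = 0.325).

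Other genes differed in the same direction as Klf6 between CS1-1 and R1. Of 18 early response genes, the genes that growth factors induce within a short time and among which Klf6 is often counted, 11 were lower in CS1-1 and 0 higher, beside 5.7% and 4.18% of all genes, with a median difference of -1.11 against 0.02 for all genes. Ier2 (-1.12 ± 0.06), Egr1 (-1.04 ± 0.06), Jun (-1.56 ± 0.09) and Ier3 (-1.17 ± 0.08) had the smallest adjusted p among them (limma, 3.23e-12 to 2.76e-10). The summed signal of the list was 49100 to 51500 units in CS1-1 and 73600 to 86300 in R1. In the ahES lines it lay below CS1-1, at 42500 to 46000 in AH129-5, 31200 to 33000 in AH129-N1 and 41900 to 46800 in AH129-NC1. Klf6 was higher in these lines (means 12.26, 11.96 and 11.72) than in CS1-1 (11.02), so the sum did not follow Klf6 over the ES lines. The summed signal of the 14 fibroblast markers was 23000 to 24000 units in CS1-1, with Twist1 near background, and 49500 to 50500 in R1, against 199000 to 201000 in MEF. The part of either in the Klf6 difference was not tested.

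Among the 3 ahES lines, 0 of the 8 factors passed in each pair, against 5.33% of genes between AH129-5 and AH129-N1, 5.37% between AH129-5 and AH129-NC1 and 3.15% between AH129-N1 and AH129-NC1. By limma, 6 factors had an adjusted p under 0.05 in each pair at differences under 2-fold, and such small differences were also found in 42.8%, 39.3% and 36.2% of all genes. The unadjusted p was under 0.05 for 6, 7 and 6 factors, and for at least those shares of all genes. By their brightest probe sets, Klf3 and Klf10 were both highest in AH129-5 and lowest in AH129-N1. By Klf3 probe set 1421604_a_at, AH129-NC1 was lowest (mean 7.96, against 8.19 in AH129-N1). Klf3 was 0.87 ± 0.09 and Klf10 0.75 ± 0.06 higher in AH129-5 than in AH129-N1 (limma adjusted p = 2.87e-07 and 3.91e-09). By the other Klf3 probe sets tested, this difference ran from 0.18 ± 0.11 (1431630_a_at, limma adjusted p = 0.216) to 0.71 ± 0.21 (1441200_at, adjusted p = 0.0134). Klf6 was 0.54 ± 0.05 higher in AH129-5 than in AH129-NC1 (adjusted p = 1.21e-07), and Klf2 differed by -0.30 ± 0.05 between AH129-5 and AH129-N1 (adjusted p = 0.000128).

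Probe sets of 1 gene did not always give the same difference from round sperm nor, for Klf3, from MEF. For Klf3, Klf5 and Klf6 this also held between ES lines. The choice of probe set bears on Klf3, Klf5 and Klf9. Of the 26 probe sets of the 8 genes tested between ahES cells and round sperm, 19 were higher in ahES cells, 1 was lower and 6 did not pass, against 42.8% higher and 28.9% lower among 26255 probe sets. All 5 probe sets of Klf6 were higher in ahES cells, as were both of the Klf13 probe sets tested. The 5 were above background on 0 of 3 round sperm arrays, and their bounds ran from at least 2.48-fold for 1459718_x_at to at least 89.1-fold for 1427742_a_at. For Klf3, 1454666_at was below background on all 3 round sperm arrays (at least 43-fold), whereas 1431630_a_at still read 7.15 to 7.99 there, above background, and differed by 1.53 ± 0.14. Probe set 1441200_at of Klf3, above background on 2 of 3 round sperm arrays, did not pass.

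For Klf5, 1451021_a_at and 1451739_at were higher in ahES cells (1.91 ± 0.09 and 2.56 ± 0.14), but 1430255_at was higher in round sperm, at 7.24 to 7.54, and was above background on 3 of 9 ahES arrays and 0 of 3 MEF arrays (at least 3.47-fold higher than in ahES cells, limma adjusted p = 4.43e-05). For Klf9, 4 of 7 probe sets were higher in ahES cells, by 1.64 to 2.41, whereas 1436763_a_at (-0.49 ± 0.08) and 1436952_at (-0.91 ± 0.21) had values toward round sperm. Averaged over all probe sets of a gene, the difference from round sperm was 0.78 in ahES and 0.93 in diploid ES cells for Klf5, and 1.00 in both for Klf9, and neither gene passed. Between MEF and round sperm, 1436763_a_at and 1436952_at were lower in MEF (-2.32 ± 0.10 and -2.47 ± 0.26) and 1428289_at was higher (1.04 ± 0.08), among 30.2% of probe sets lower and 43.8% higher, while 1456341_a_at differed by -0.10 ± 0.07. Where in a transcript these probe sets lie was not analysed here.

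**Figure D4:**
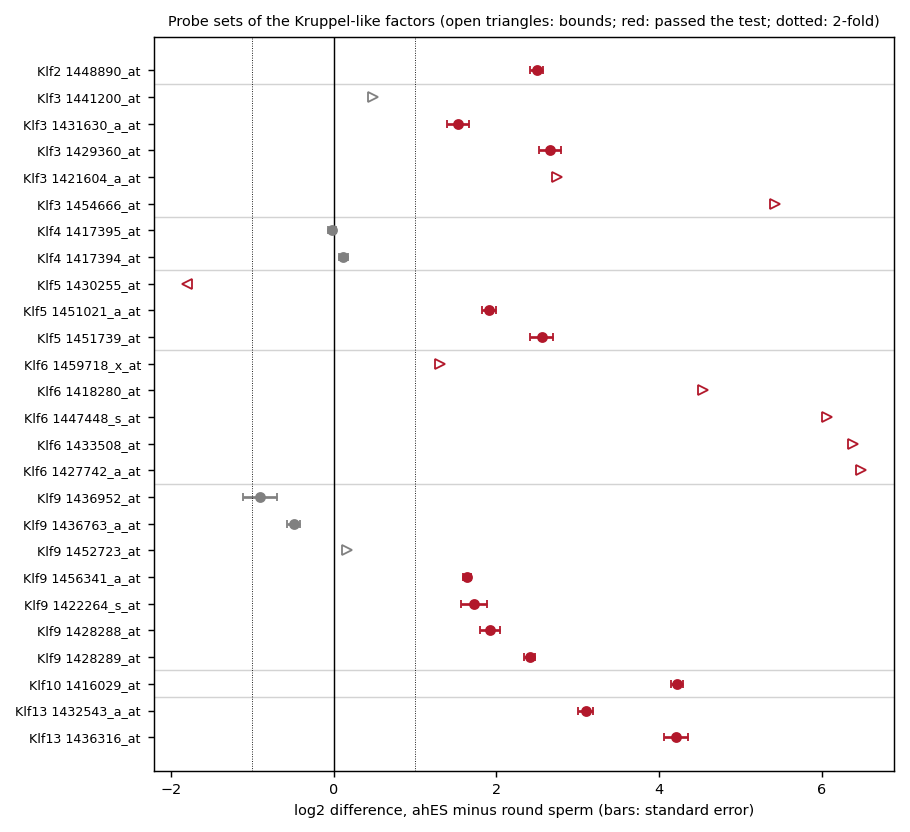
Log2 difference, ahES minus round sperm (horizontal axis, bars of 1 standard error), for each of the 26 tested probe sets of the Krüppel-like factors, grouped by gene. Open triangles are lower bounds, red symbols passed the test and dotted lines mark 2-fold. Klf6 lies to the right in all 5 probe sets and Klf4 close to the 0 line in both, while 1430255_at of Klf5 lies to the left at a bound of -1.80.

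The other members of the family were read from a list of 18 Klf and Sp genes, of which 15 had a probe set of their own (all but Klf8, Sp2 and Sp9). A pair of them, Klf1 and Klf17, was high in round sperm and low in the other groups. Klf1, the erythroid factor that activates beta-globin, read 10.10, 10.27 and 10.42 in round sperm and had group means of 5.35 to 6.14 elsewhere, close to background. Klf17, first described as a germ cell zinc finger gene, read 9.65, 9.76 and 9.81 in round sperm and had means of 5.67 in ahES cells and 5.74 in MEF. Both were higher in round sperm than in ahES cells, Klf1 at least 21.7-fold (limma adjusted p = 8.06e-11) and Klf17 at least 15.8-fold (adjusted p = 5.75e-13). Klf1 was above background on 6 and Klf17 on 5 of the 9 ahES arrays.

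Of the 14 other genes tested against round sperm, 9 were higher in ahES cells, 2 were lower and 3 did not pass, where 40.8% of all genes were higher and 32.3% lower. Sp3 (69.3-fold, with round sperm arrays at 5.56 to 5.97, little above background), Sp1 (5.85-fold), Klf11 (9.51-fold) and Sp5 (at least 42.8-fold) had the smallest adjusted p among those higher. Against MEF, 6 of 13 were higher in ahES cells and 2 lower, beside 21.2% and 21.1% of all genes. The higher ones were Sp5, a target of Wnt signalling (at least 44.7-fold), Klf11, a relative of Klf10 (3.79-fold), Sp1 (2.24-fold), Klf15 (at least 6.46-fold), Sp4 and Sp6, and the lower ones were Klf12, a repressor that recruits CtBP as Klf3 does (at least 7-fold), and Klf7 (2.12-fold). Klf12 was also the 1 of 13 to pass between ahES and diploid ES cells, where it was at least 3.05-fold lower in ahES cells (limma adjusted p = 0.0207), among 1.37% of all genes lower. It was above background on 5 of the 9 ahES arrays. Its means were 5.71 in ahES cells, 6.65 in R1 and 8.14 in CS1-1. Between CS1-1 and R1, Klf12 (1.49 ± 0.25) and Klf15 (1.19 ± 0.15) were higher in CS1-1 and Klf7 was lower (-1.14 ± 0.15), beside 4.18% of all genes higher and 5.7% lower. In each pair of ahES lines 0 of these genes passed by limma, while 4 to 8 had an unadjusted and 3 to 6 an adjusted p under 0.05. Among all genes, 36.2% to 42.8% had such an adjusted p.

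**Figure D5:**
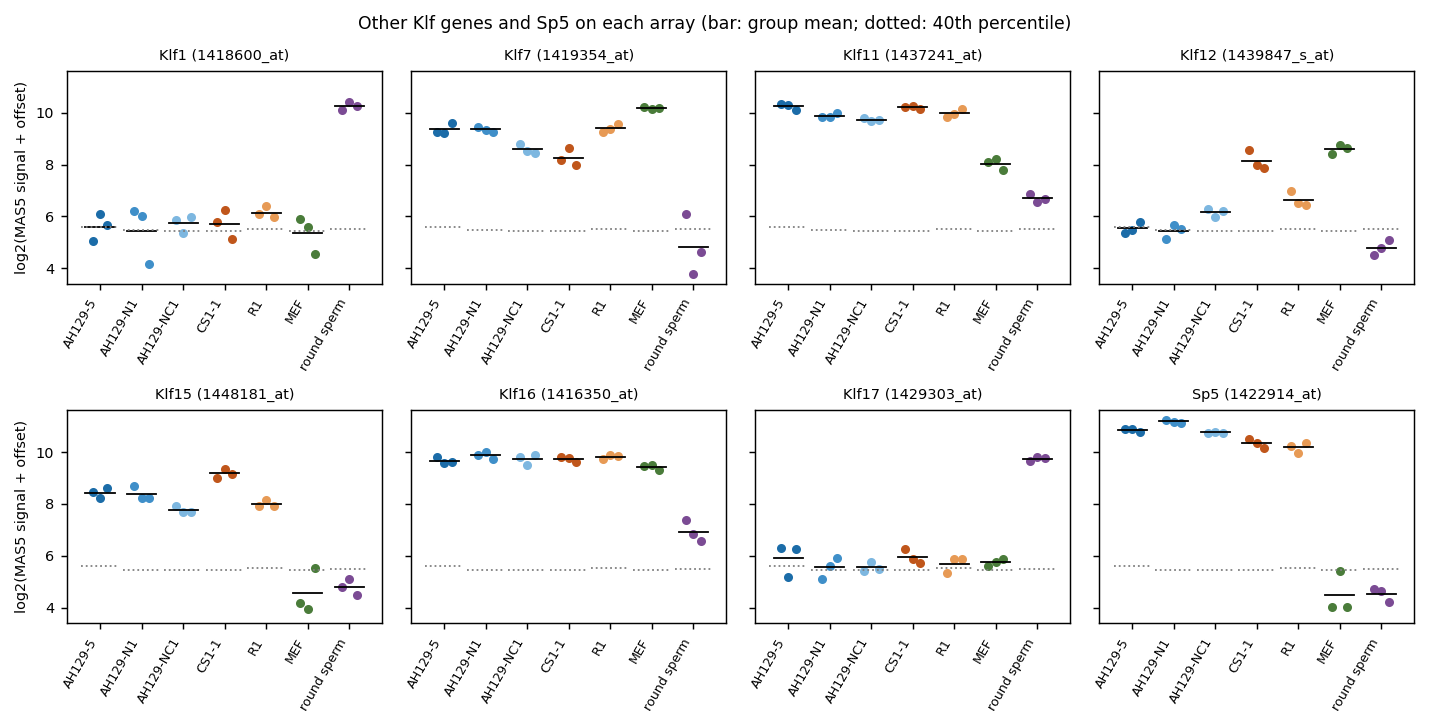
Log2(MAS5 signal + 9.7) of 7 other Klf genes and Sp5 on each of the 21 arrays, by group, with group means as bars and the mean 40th percentile as dotted lines. Klf1 and Klf17 stand above the dotted line in round sperm, at 9.65 to 10.42, and Klf12 is at 7.85 to 8.58 in CS1-1 and 6.45 to 6.98 in R1.

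The network in which Klf2, Klf4 and Klf5 act was read from 18 genes of LIF and STAT3 signalling and naive pluripotency. Between ahES and diploid ES cells 0 of 18 passed by limma (6 with an unadjusted p and 1 with an adjusted p under 0.05). Among all genes, 11.7% had such an adjusted p. The median difference was 0.00 against -0.03 for all genes. Against MEF, 15 were higher in ahES cells and 3 lower, beside 21.2% and 21.1% of all genes, with a median difference of 6.75, or 6.03 with 11 of them at their bound. Pou5f1 (at least 294-fold), Tfcp2l1 (at least 250-fold), Zfp42 (at least 265-fold) and Prdm14 (at least 46.8-fold) had the smallest adjusted p. The 3 that were lower were the receptor subunit Il6st (-1.04 ± 0.16), the kinase Jak1 (-1.5 ± 0.44) and Stat3 (-1.26 ± 0.10). Lifr and Socs3, which belong to LIF signalling as these 3 do, were among the 15 that were higher. Against round sperm all 18 were higher in ahES cells, as were 40.8% of all genes. Their median was 6.16, or 5.77 with the 12 at their bound that were not above background on all 3 round sperm arrays. Stat3 differed by 3.22 and Nanog was at least 301-fold higher, while Klf4 differed by 0.12.

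Of 10 genes for corepressors and ubiquitin ligases that act on Klf proteins, 9 were tested in each comparison. Between ahES and diploid ES cells 0 passed by limma (3 with an unadjusted and an adjusted p under 0.05, beside 11.7% of all genes at such an adjusted p). Against MEF, Sap30 (4.86-fold), Sin3a (2.61-fold) and Fbxw7 (2.24-fold) were higher in ahES cells and Ctbp1, the partner of Klf3, was lower (2.69-fold), that is, 3 and 1 of 9 beside 21.2% and 21.1% of all genes. Against round sperm, Sap30, Hdac2, Ctbp1 and Ctbp2 were higher in ahES cells by 2.92 to 4.66, and the ubiquitin ligase Wwp1 was lower (-2.62 ± 0.11), that is, 4 and 1 of 9 beside 40.8% and 32.3% of all genes. The early response genes gave 1 higher and 3 lower of 18 between ahES and diploid ES cells, namely Ier5 (1.30 ± 0.26), Fos (-2.22 ± 0.20), Egr1 (-1.23 ± 0.24) and Egr2 (-2.14 ± 0.50), beside 3.01% of all genes higher and 1.37% lower. Against MEF, 3 were higher in ahES cells and 8 lower, beside 21.2% and 21.1% of all genes. Against round sperm 15 of 17 were higher, 7 of them at a bound, beside 40.8% of all genes.

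Over the 7 group means, the 8 factors fell into patterns that followed their levels in round sperm and MEF. Klf6 and Klf13 had a Pearson correlation of 0.988, Klf3 and Klf13 of 0.977 and Klf3 and Klf6 of 0.962. Klf5 and Klf9 had 0.977 and Klf2 and Klf5 0.970. Klf4 and Klf13 had -0.128, the lowest of the 28 pairs. These are descriptions over 7 points that share the arrays and their scaling, and the low values of round sperm weigh on those of Klf3, Klf6 and Klf13. Over the 5 ES lines, Klf3 and Klf10 had 0.94 and Klf2 and Klf9 had -0.96, again over few points.

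Of 14197 genes above background in at least 1 group and with group means ranging over at least 1 unit, those most like each factor over the 7 group means were found by Pearson correlation. For Klf2 they were Sh3gl2, Taf7 and Esrrb (0.998 each), for Klf5 Aldh6a1, 2210409E12Rik and Mreg (0.992 to 0.995), and for Klf4 Sbno1, Gpn1 and Ash2l (0.988 to 0.995). For Klf3 they were Nipsnap2, Nrip1 and Uba3, for Klf6 Gnai3, Slc35e1 and Tent4a, for Klf9 Syngr1, Kdm2b and Dsg2, for Klf10 B4galt3, Mrpl2 and Nudt17, and for Klf13 Washc5, Trak2 and Bmpr1a. Such likeness was common for Klf13, with 303 genes over 0.99, and for Klf6, with 114, and rare for Klf4, with 2. The names depended on the measure. Of the 24, 6 were also among the 3 most alike by Pearson correlation over the 21 arrays and 4 by Spearman correlation over the 7 groups. None of those named for Klf2 and Klf13 was shared in either case, and over the arrays Nudt17 was at rank 827 for Klf10 and Bmpr1a at rank 1123 for Klf13.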

How the data were processed

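The deposited values were 1 table of log2 MAS5 signals for 45101 probe sets on 21 arrays, made by the authors with MAS5, per the submitters' processing notes, which give no version. The labels do not state the log base. Unlogged from base 2, signals had a 2% trimmed mean of 500 to 501 on each array. Array medians of the deposited log2 values, before the offset, lay between 5.62 and 6.03. Total RNA had been labelled with a 3' IVT kit, per the labels' protocols. With 3 arrays in a group, precision rests on their number.

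Probe sets were named by the platform annotation with symbols updated through a RefSeq table (GRCm38.p6): 34945 had 1 symbol, 932 several, 9160 none and 64 were controls. For the offset, the 20th percentile of the unlogged signal was taken on each array, and then the median of these. Genes entered a test if some compared line or group had all 3 arrays over the array's 40th percentile. Tests were 2-sided and made with limma 3.58.1 (statmod 1.5.0, R 4.3.3; eBayes with trend and robust), for ahES minus diploid ES with the line as a random block (consensus correlation 0.687), and otherwise with a mean per group, over the 15 ES arrays or all 21. The workflow was tested on simulated data. Replicate numbers were checked as pairs and did not pair the arrays. The genes and lists were chosen with earlier results of these data known. Named genes were all 8 factors, up to 4 passing genes per list and comparison by smallest adjusted p together with any set of 5 or fewer, and the 3 most alike genes by Pearson correlation. Alternatives changed the probe set, offset, filter, scaling, moderation, threshold, block and the arrays or lines included.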

Additional observations from a re-analysis of the deposited data

Results flagged for a closer look

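By its brightest probe set, Klf6 differed in direction between the diploid lines as references. The ahES mean lay 0.96 above CS1-1 and -0.27 from R1 (ahES minus R1), and the test of the difference itself, which equals CS1-1 minus R1, gave -1.23 (limma adjusted p = 2.6e-13). That test does not decide the sign of ahES minus R1. AH129-5 was level with R1 (means 12.26 and 12.25). The ahES mean also lay below R1 by 1418280_at (10.05 against 10.2) and 1447448_s_at (11.57 against 11.78). It lay above R1 by 1433508_at (11.89 against 11.81) and 1459718_x_at (6.81 against 6.43), so the direction did not differ there. A sample far from the others was looked for in 16 groups, the 9 ahES and the 6 diploid ES arrays for each of the 8 factors, and 0 were found. Chance gives about 1 in 20 groups where all arrays come from 1 population. Each group here pooled several lines, whose differences widen the range, so a deviating array could be missed.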

How the results depend on the processing

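Of the single-gene differences under the alternatives, 1650 kept their direction and side of the threshold, 36 passed newly, 5 no longer passed and 21 changed sign, the last all at differences that did not pass. Where not stated otherwise, the cause was not tested. Leaving out single arrays changed no count of factors that passed (ahES minus diploid ES 0, CS1-1 minus R1 1, ahES minus MEF 5, ahES minus round sperm 7, MEF minus round sperm 6), and genes called ranged from 539 to 575 for ahES minus diploid ES. The replicate block left 0 factors and 524 genes called for ahES minus diploid ES (564 without it) and changed no other call of a factor. Deviations of arrays sharing a number correlated between -0.06 and 0.05, and 5 of 21 arrays correlated best with their own number.

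Dropping the 2-fold threshold, which admits small differences, gave for factors 2 (ahES minus diploid ES), 6 (CS1-1 minus R1), 6, 6 and 6 (the ahES pairs) and 8 (ahES minus MEF), and for genes 1506, 6010, 5198 (AH129-5 minus AH129-N1), 4796 (AH129-5 minus AH129-NC1), 4376 (AH129-N1 minus AH129-NC1), 10191 and 10190 (diploid ES minus MEF). Every probe set on its own, which tests more features, gave in the same order 907, 1977, 1046, 1041, 605, 9703 and 10307, and 18822, 18845 and 18977 for ahES, diploid ES and MEF minus round sperm. An offset of 50 gave 704 (CS1-1 minus R1), 317, 315 and 134 (the ahES pairs), and a filter at the 60th percentile, which tests fewer genes, 794 (CS1-1 minus R1), 421 (AH129-5 minus AH129-N1) and 221 (AH129-N1 minus AH129-NC1). For ahES minus diploid ES, 1 mean per line gave 282 genes, a fixed mean per line 1044 and leaving out R1 1106, and leaving out AH129-5 or R1 gave 1 factor, Klf3, in each case. Without probe sets marked _x_at, _s_at or _a_at, CS1-1 minus R1 gave 0 factors (Klf6 at -0.98).

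Signs that changed were, for ahES minus diploid ES, Klf9 (0.00 as the mean over probe sets, -0.10 without marked probe sets), Klf5 (0.06, 0.00 and 0.28 without AH129-N1, AH129-NC1 and CS1-1) and Klf6 (-0.27 without CS1-1). Between lines, the mean over probe sets gave Klf13 -0.02 (CS1-1 minus R1), Klf4 0.01 and Klf13 -0.01 (AH129-5 minus AH129-N1), and Klf3 0.17 and Klf5 0.03 (AH129-N1 minus AH129-NC1). Median-centred arrays gave Klf13 -0.01 (AH129-5 minus AH129-N1), Klf9 -0.12 (AH129-5 minus AH129-NC1, and -0.02 without AH129-NC1 replicate 3) and Klf4 0.00 (ahES minus round sperm). Klf3 for diploid ES minus MEF was 0.00 with quantile normalization and -0.01 and 0.00 without R1 replicates 1 and 2. For MEF minus round sperm, Klf5 was 0.08 and Klf9 0.27 without marked probe sets, Klf9 was 0.13 with quantile normalization, and Klf5 passed at -1.23 as the mean over probe sets and at -1.04 with quantile normalization. Median centring and quantile normalization moved the share of higher calls from 72.7% to 54.2% and 62.7% for AH129-5 minus AH129-N1, and from 60% to 39.3% and 46.5% for AH129-5 minus AH129-NC1.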
